A study of Mus musculus with 9 samples.

Results

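The contractile machinery of smooth muscle was followed through 10 genes in the colon of mice with colitis that had received human mesenchymal stem cells (MSCs). The genes were *Myh11*, *Myl9*, *Mylk*, *Acta2*, *Actg2*, *Cnn1*, *Tagln*, *Smtn*, *Lmod1* and *Des*, chosen for their known function and matched by gene symbol. They are 10 of the 38087 genes in the deposited table, and each had exactly 1 entry there. All 10 had their highest level in UC-MSC colons, 1.41-fold (*Actg2*) to 1.95-fold (*Lmod1*) above Control colons, whereas AD-MSC colons were 1.01-fold (*Tagln*) to 1.22-fold (*Des*) above Control.

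Smooth muscle forms the outer wall of the colon, where a circular and a longitudinal layer drive peristalsis, and also the muscularis mucosae and the walls of vessels. Its cells contract when calcium, bound to calmodulin, activates myosin light chain kinase, which phosphorylates the regulatory light chain of myosin and lets the myosin heads pull on actin filaments. Actin-binding proteins tune this cycle, and desmin filaments and dense bodies carry the force across the cell. Most of these genes are controlled by serum response factor, which binds CArG boxes together with its partner myocardin.

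The study asked what happens in the inflamed colon shortly after MSC injection. Male C57BL/6 mice aged 10 to 12 weeks drank water with 2.5% dextran sulfate sodium (DSS), which injures the colonic epithelium, and all 3 groups carried this colitis. On day 3 the cells were injected into a vein: the AD-MSC group received 1000000 human MSCs from adipose tissue, the UC-MSC group received 1000000 human MSCs from umbilical cord tissue, and the Control group received phosphate-buffered saline without cells. The middle colon was taken on day 4. Total RNA of 3 mice a group was sequenced, 9 libraries in all. The injected cells were human and the host was an immunocompetent mouse. Mice without DSS were not analysed here, so each comparison is between colons with colitis.

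The deposited table gives, for each gene, 1 log2 mean of normalized reads per group, made by the authors, so each level below is a mean of 3 libraries with no spread. No standard deviation or p-value could be computed, and the group means allow no replicate check of any difference. Each difference has instead a 95% counting interval, the smallest error that the number of reads allows, which leaves out all variation between mice. Summed over all genes, the authors' raw means came to 8222017 reads for AD-MSC, 5034908 for UC-MSC and 7295598 for Control. Every one of the 10 genes was inferred to have reads in all 3 libraries of each group, from how the raw and log2 means relate. Their raw group means were 970 (*Lmod1* in Control) to 47878 (*Myh11* in AD-MSC). The smallest counting error of their log2 differences was therefore only 0.006 to 0.036. Genes are counted below at a limit of 1.5-fold between group means, a log2 difference of 0.585. When that limit was chosen, an earlier account of these data had already shown smooth muscle genes higher in UC-MSC. Counts at it therefore describe the values and are not an independent call. RNA came from the excised middle colon with all its cell types, so more smooth muscle cells in a sample and more RNA per smooth muscle cell cannot be told apart.

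The thick filament genes come first. *Myh11*, on chromosome 16 from 14194527 to 14291408 on the minus strand of GRCm38, encodes the smooth muscle myosin heavy chain, the motor itself. It had 38121 normalized reads in AD-MSC, 48653 in UC-MSC and 31308 in Control, and alone made up 44.2% of the reads of the 10 genes in AD-MSC, 41.4% in UC-MSC and 41.8% in Control. Its level was 1.55-fold higher in UC-MSC than in Control (log2 difference 0.64, interval 0.62 to 0.65) and 1.22-fold higher in AD-MSC than in Control (0.28, 0.27 to 0.30). *Myh11* had the smallest difference of the 10 genes between UC-MSC and AD-MSC, at 0.35.

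*Myl9*, on chromosome 2 from 156775420 to 156781658 (plus strand), encodes the regulatory light chain whose phosphorylation starts contraction. It had 3352 normalized reads in AD-MSC, 4471 in UC-MSC and 3062 in Control. Its log2 difference from Control was 0.55 in UC-MSC (0.51 to 0.59) and 0.13 in AD-MSC (0.09 to 0.17). *Mylk*, on chromosome 16 from 34745210 to 35002420 (plus strand), encodes the kinase that phosphorylates this light chain. Its locus also gives rise to telokin, a short smooth muscle product from an internal promoter, and gene-level reads do not separate the transcripts. *Mylk* had 6155 normalized reads in AD-MSC, 7931 in UC-MSC and 5102 in Control, or log2 differences from Control of 0.27 in AD-MSC colons and 0.64 in UC-MSC colons. The kinase gene was thus further above Control than the gene of its substrate in both MSC groups. The log2 ratio of *Mylk* to *Myl9* was 0.88 in AD-MSC, 0.83 in UC-MSC and 0.74 in Control, so it differed from Control by 0.14 in AD-MSC and 0.09 in UC-MSC, with smallest counting errors of 0.02 and 0.03.

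The thin filament holds the actins of smooth muscle. *Acta2*, on chromosome 19 from 34241090 to 34255336 (minus strand), encodes smooth muscle alpha-actin, which vessels and myofibroblasts also make. *Actg2*, on chromosome 6 from 83512905 to 83536265 (minus strand), encodes gamma-enteric actin, the main actin of gut muscle. Because actins are close to identical as proteins, it matters whether 50-base reads can tell these genes apart, and their coding sequences show that they can. Lined up from the stop codon, 948 of 1131 bases (83.8%) were the same, the longest identical run was 29 bases, and 0 stretches of 50 bases matched at the same place. The 60 coding bases with the most differences (among those from base 19 of the *Actg2* coding sequence on) are shown because they carry 16 differences, in capitals, so that a read from there matches only 1 of the pair. They are coding bases 436 to 495 of *Acta2*, which lie across a splice junction at chr19:34246199-34246670, and coding bases 433 to 492 of *Actg2*, likewise across a junction at chr6:83520777-83522834, both on the minus strand of GRCm38 in GENCODE M21.
Acta2: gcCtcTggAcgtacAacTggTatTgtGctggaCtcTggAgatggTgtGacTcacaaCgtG
Actg2: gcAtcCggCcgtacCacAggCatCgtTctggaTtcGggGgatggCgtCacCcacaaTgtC
The 29 bases that both genes share are gacatcaaggagaagctgtgctatgtagc, at chr19:34245055-34245083 in *Acta2* and chr6:83519911-83519939 in *Actg2*.

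*Acta2* had 7901 normalized reads in AD-MSC, 11143 in UC-MSC and 7591 in Control. *Actg2* had 8343 in AD-MSC, 11244 in UC-MSC and 7962 in Control. In UC-MSC the actins were 1.47-fold and 1.41-fold above Control, at log2 differences of 0.55 for *Acta2* (0.53 to 0.58) and 0.50 for *Actg2* (0.47 to 0.52), whereas AD-MSC colons were at 0.06 for *Acta2* and 0.07 for *Actg2*. *Actg2* had the smallest UC-MSC difference of the 10 genes. The balance between the visceral and the vascular actin was nearly the same everywhere, with a log2 ratio of *Actg2* to *Acta2* of 0.08 in AD-MSC, 0.01 in UC-MSC and 0.07 in Control. That ratio differed from Control by 0.01 in AD-MSC and by -0.06 in UC-MSC, with a smallest counting error of 0.02 for each.

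*Cnn1*, *Tagln* and *Smtn* bind actin filaments and mark differentiated smooth muscle. *Cnn1* (calponin, which restrains the myosin motor; chromosome 9 from 22099281 to 22109630, plus strand) had 3333 normalized reads in AD-MSC, 4952 in UC-MSC and 3223 in Control. *Tagln* (transgelin or SM22 alpha, an actin cross-linker; chromosome 9 from 45929628 to 45936058, minus strand) had 4518 in AD-MSC, 7101 in UC-MSC and 4484 in Control. *Smtn* (smoothelin, found in contractile cells; chromosome 11 from 3517523 to 3540612, minus strand) had 1582 in AD-MSC, 2431 in UC-MSC and 1533 in Control. These 3 genes shared a pattern. In UC-MSC they were 1.54-fold, 1.58-fold and 1.59-fold above Control, and in AD-MSC they were at most 1.03-fold above it. For *Tagln* (0.01, -0.02 to 0.04) and *Smtn* (0.05, -0.01 to 0.10) the AD-MSC difference lay within counting error alone. *Cnn1* in UC-MSC was close to the 1.5-fold limit, with a log2 difference of 0.62 and an interval of 0.58 to 0.66.

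*Lmod1* and *Des* had the largest UC-MSC differences among the 10 genes. *Lmod1* (leiomodin, which seeds new actin filaments; chromosome 1 from 135324807 to 135368065, plus strand) had 1037 normalized reads in AD-MSC, 1654 in UC-MSC and 850.0 in Control. Its log2 difference from Control was 0.96 in UC-MSC (0.89 to 1.03), a 1.95-fold higher level, and 0.29 in AD-MSC (0.22 to 0.36). *Des* (desmin, the muscle intermediate filament that ties dense bodies together; chromosome 1 from 75360329 to 75368579, plus strand) had 11921 normalized reads in AD-MSC, 17865 in UC-MSC and 9752 in Control. Its log2 difference was 0.87 in UC-MSC (0.85 to 0.89), a 1.83-fold higher level, and 0.29 in AD-MSC (0.27 to 0.31). Both genes were further from Control than the actins. The log2 ratio of *Des* to *Acta2* differed from Control by 0.23 in AD-MSC and 0.32 in UC-MSC, and that of *Lmod1* to *Acta2* by 0.23 in AD-MSC and 0.41 in UC-MSC, with smallest counting errors of 0.02 for *Des* and 0.04 for *Lmod1*.

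**Figure D1:**
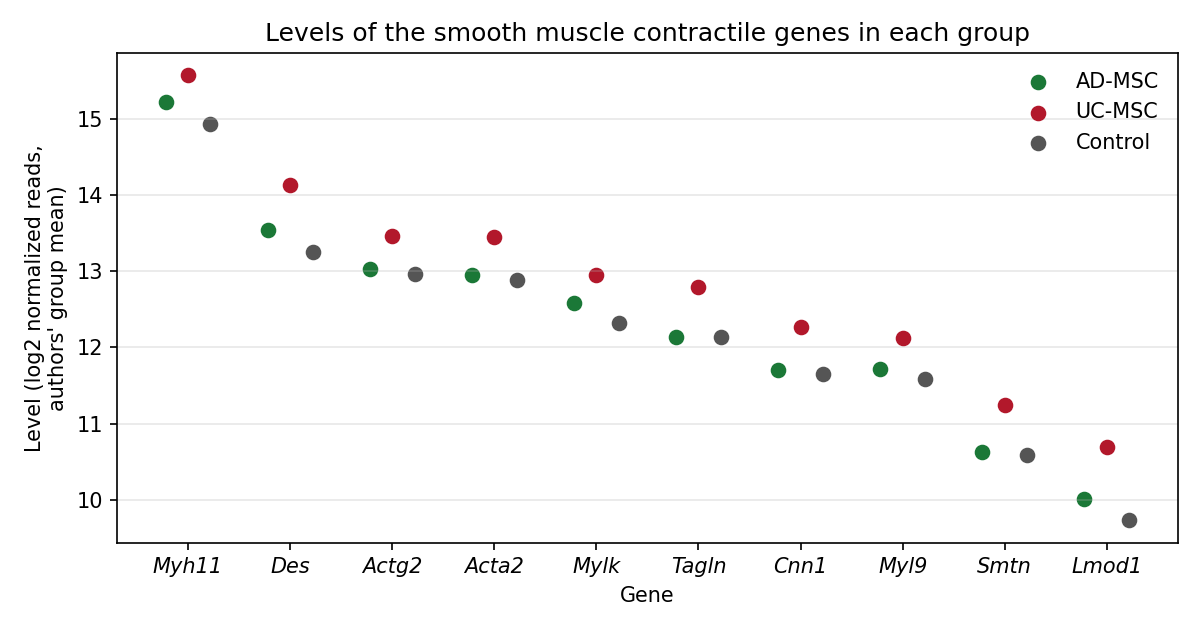
Level of each contractile gene (y axis, mean log2 normalized reads of the group, by the authors) in AD-MSC, UC-MSC and Control colons, with genes ordered by their Control level. The UC-MSC point is the highest for all 10 genes, and the AD-MSC point lies between it and Control, almost level with Control for *Tagln*.

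Per kilobase of exon the order of the levels was almost the same in the 3 groups. In UC-MSC it ran *Myh11* (7362 normalized reads per kilobase), *Actg2* (7222), *Des* (5900), *Acta2* (5074), *Tagln* (4373), *Myl9* (3964), *Cnn1* (1877), *Mylk* (980), *Smtn* (597) and *Lmod1* (419). In AD-MSC *Myh11* (5768) again stood above *Actg2* (5359), followed by *Des* (3937) and *Acta2* (3598), while in Control *Actg2* (5114) stood above *Myh11* (4737) and *Acta2* (3457) above *Des* (3220). *Tagln* and *Myl9* also traded places, at 2782 and 2972 in AD-MSC, 4373 and 3964 in UC-MSC, and 2761 and 2714 in Control. The genes of filament proteins thus stood above those of the kinase, smoothelin and leiomodin in each group. Whether neighbours in this order differ beyond the spread between mice cannot be said from group means.

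In UC-MSC against Control, 7 of the 10 genes were at least 1.5-fold higher, and 14.4% of the 15026 genes compared were. The 7 were *Lmod1*, *Des*, *Smtn*, *Tagln*, *Mylk*, *Myh11* and *Cnn1*, and for 6 of them, all but *Cnn1*, the whole counting interval lay above the limit. *Acta2*, *Myl9* and *Actg2* were 1.47-fold, 1.46-fold and 1.41-fold higher. At a limit of 2-fold the count was 0 of 10, against 5.09% of all genes, so the differences were moderate and close together: they spanned 0.46 on the log2 scale, with a median of 0.64 (1.55-fold). All 10 genes had a higher value, as did 48.3% of all genes, whose median difference was -0.02. A difference as large as the median of the 10 was held by 12.8% of all genes. When both groups were scaled to the same total of normalized reads, only *Lmod1* and *Des* stayed at 1.5-fold, and the median was 0.50.

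In AD-MSC against Control, 0 of the 10 genes reached 1.5-fold, against 6.57% of the 14960 genes compared, and 0 reached 2-fold, against 1.69%. The median was 0.10 (1.07-fold), which 36.6% of all genes equalled or exceeded, so these genes lay well inside the bulk of the table. All 10 values were nevertheless above Control, against 48.9% of all genes, and for 8 genes the counting interval lay above 0. The genes fell into 4 with log2 differences of 0.27 to 0.29 (*Des*, *Lmod1*, *Myh11* and *Mylk*) and 6 with 0.01 to 0.13 (*Myl9*, *Actg2*, *Acta2*, *Cnn1*, *Smtn* and *Tagln*), a split seen only after the values were known. Scaled to equal totals, *Tagln* was at -0.02 and the other 9 genes stayed above Control.

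In UC-MSC against AD-MSC, 3 of the 10 genes were at least 1.5-fold higher, namely *Lmod1* (0.67), *Tagln* (0.65) and *Smtn* (0.62), against 12.3% of the 15074 genes compared. *Des*, at 0.58, lay just under the limit. At 2-fold the count was 0 of 10, against 4.5% of all genes. All 10 were higher in UC-MSC, as were 48.8% of all genes, with a median of 0.53 and a range of 0.35 (*Myh11*) to 0.67 (*Lmod1*). Since UC-MSC and AD-MSC were each set against the same Control libraries, those comparisons share that group. With both scaled to equal totals, 0 of the 10 genes were at 1.5-fold here, and the median was 0.43.

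**Figure D2:**
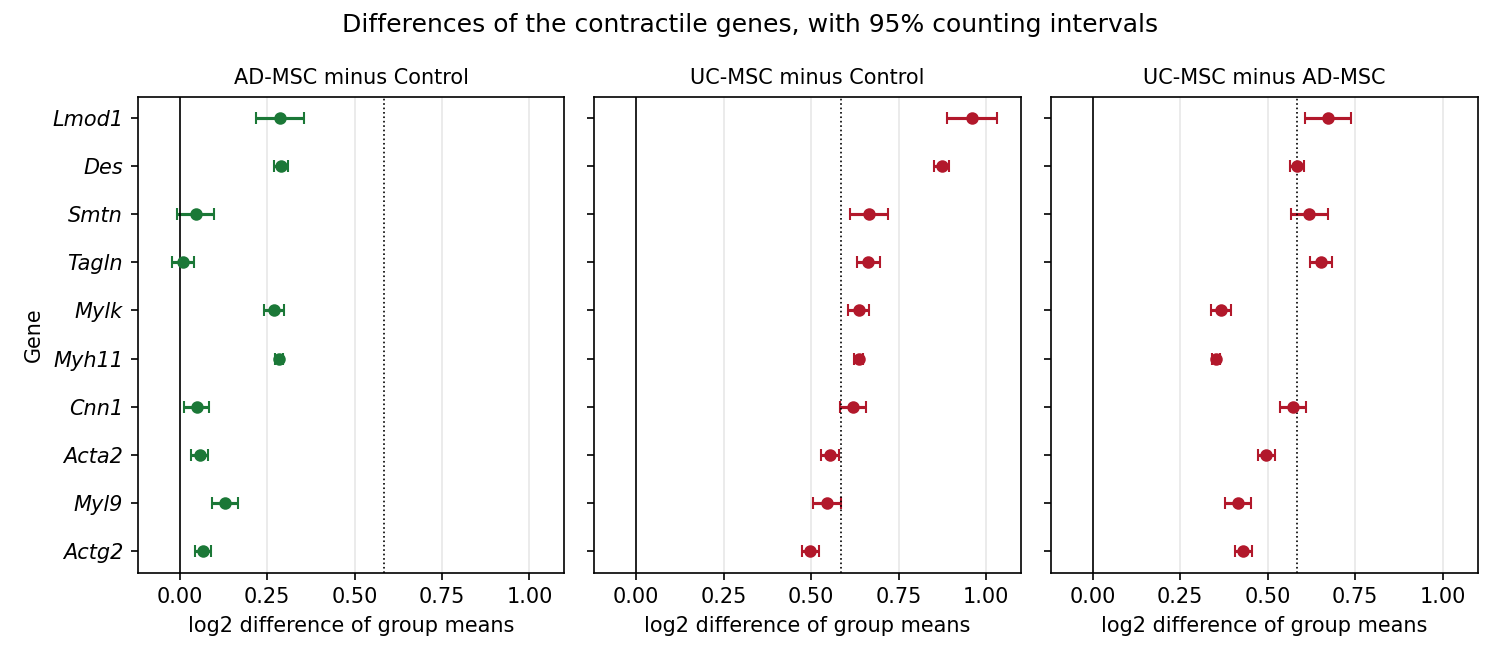
Log2 difference of group means (x axis) of each contractile gene for AD-MSC minus Control, UC-MSC minus Control and UC-MSC minus AD-MSC, with 95% counting intervals as bars, which leave out variation between mice. The solid line marks 0 and the dotted line the 1.5-fold limit at 0.585, which 0 genes passed in the left panel, 7 in the middle panel and 3 in the right panel.

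**Figure D3:**
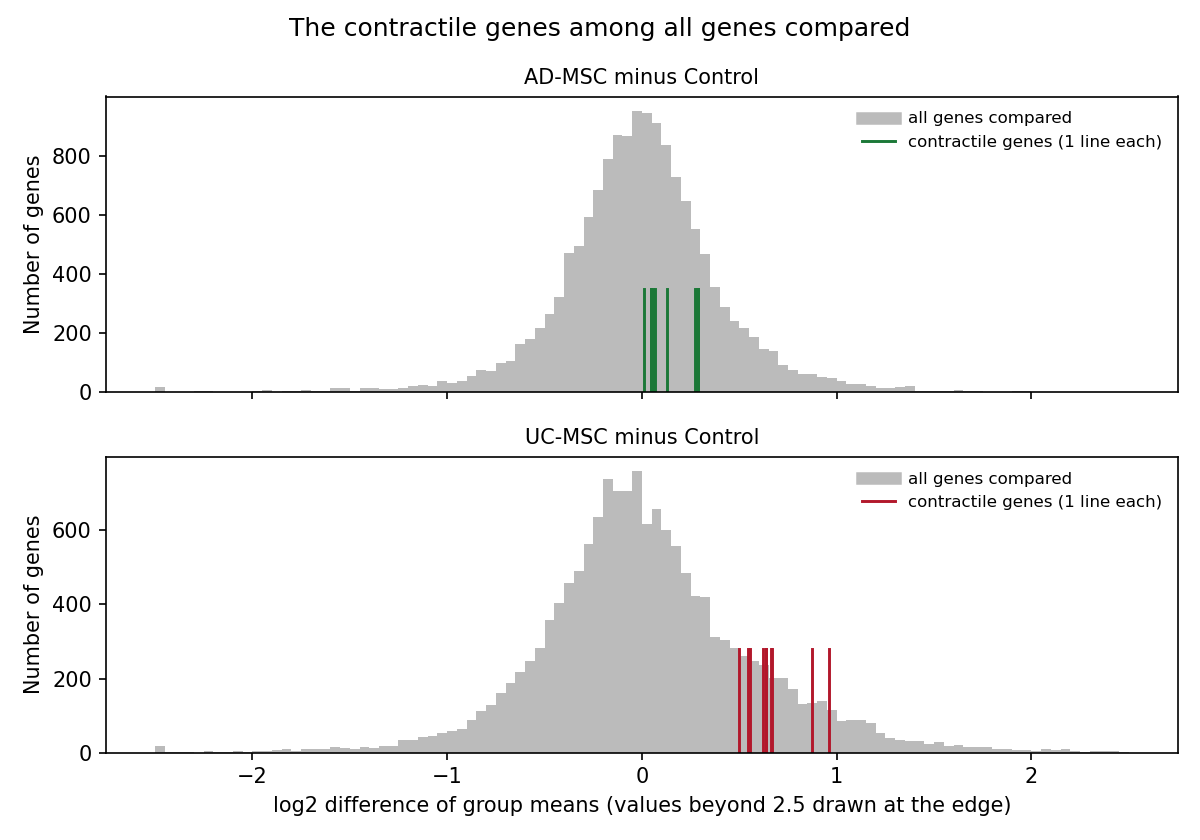
Number of genes (y axis) by log2 difference from Control (x axis) for all 14960 genes compared in AD-MSC and all 15026 in UC-MSC, in grey, with a coloured line at each of the 10 contractile genes. In AD-MSC the lines lie within the main peak at 0.01 to 0.29, and in UC-MSC they lie on its right shoulder at 0.50 to 0.96.

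Together the 10 genes held 1.32% of all normalized reads in AD-MSC, 1.67% in UC-MSC and 1.17% in Control. Their summed level was 86263 normalized reads in AD-MSC, 117445 in UC-MSC and 74866 in Control. As a share of all reads the contractile genes were thus highest in UC-MSC also when the larger total of that group was taken into account.

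Members of the same protein families that other cells use gave a reference inside each family. For the 13 compared, the median log2 difference from Control was -0.05 in AD-MSC and 0.19 in UC-MSC (0.06 in UC-MSC with equal totals), with 2 of 13 at least 1.5-fold higher in UC-MSC and 1 of 13 lower in AD-MSC. Of all genes compared, 14.4% were at least 1.5-fold higher in UC-MSC and 990 of 14960 at least 1.5-fold lower in AD-MSC. Both counts of this list were close to those shares. *Actg1*, the cytoplasmic gamma-actin, had 908 normalized reads in AD-MSC, 1340 in UC-MSC and 1575 in Control, and *Mylk4*, a kinase related to *Mylk*, had 17.1 in AD-MSC, 10.9 in UC-MSC and 11.7 in Control. *Vim*, the intermediate filament of mesenchymal cells, had 1186 in AD-MSC, 2402 in UC-MSC and 1390 in Control, and *Cnn3*, the widely expressed calponin, had 269 in AD-MSC, 430 in UC-MSC and 278 in Control. With equal totals *Cnn3* in UC-MSC was at 0.49 on the log2 scale, under the 1.5-fold limit. Set against its nonmuscle relative, the log2 ratio of *Myh11* to *Myh9* was 1.37 in AD-MSC, 1.63 in UC-MSC and 1.13 in Control. That of *Tagln* to *Tagln2* was 1.99 in AD-MSC, 2.32 in UC-MSC and 1.53 in Control, and that of *Acta2* to the cytoplasmic actin *Actb* was -1.59 in AD-MSC, -1.72 in UC-MSC and -1.97 in Control. The smooth muscle gene was thus higher relative to these 3 partners in both MSC groups. In AD-MSC *Tagln2* and *Actb* were themselves below Control, at log2 differences of -0.45 and -0.32, while *Tagln* and *Acta2* were at 0.01 and 0.06. Less apart from Control were *Myh11* to its other nonmuscle relative *Myh10*, at 6.36 in AD-MSC, 6.42 in UC-MSC and 6.26 in Control (AD-MSC was 0.10 and UC-MSC 0.16 above Control, with smallest counting errors of 0.05 and 0.06), *Cnn1* to *Cnn3*, at 3.63 in AD-MSC, 3.53 in UC-MSC and 3.53 in Control, and *Des* to *Vim* in UC-MSC, where 2.89 was near the 2.81 of Control.

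Other parts of the contractile apparatus were read from lists of companion genes. The share of all genes at least 1.5-fold higher than Control, to be set beside each list count from here on, was 14.4% in UC-MSC and 6.57% in AD-MSC. Of 20 genes of the thin filament, dense bodies and attachment plaques, all 20 had higher values in UC-MSC than in Control, 11 by at least 1.5-fold, with a median of 0.64. In AD-MSC 16 of the 20 were higher, 0 of them by 1.5-fold, with a median of 0.12. *Cald1* (caldesmon, which blocks myosin from actin) stood out with 7411 normalized reads in AD-MSC, 13935 in UC-MSC and 5259 in Control, 2.65-fold higher in UC-MSC. Relative to *Myh11* it was higher than in Control by 0.77 on the log2 scale in UC-MSC and by 0.21 in AD-MSC. *Nexn*, *Synpo2* and *Csrp1*, which code for proteins on actin filaments and Z-disc-like bodies, were 1.90-fold, 1.81-fold and 1.78-fold higher in UC-MSC.

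Genes of caveolae and of the dystrophin complex, which fix the membrane to the cytoskeleton, were higher in UC-MSC in 14 of 14 cases, 5 of them by 1.5-fold, with a median of 0.53. In AD-MSC the median was 0.17 and 2 were at 1.5-fold, namely *Sgca* and *Cav3*, both with few reads. With a pseudocount of 10 *Sgca* was at 0.44 in AD-MSC, under the limit, and *Cav3* at 0.589, just above it, while in UC-MSC *Cav3* was at 0.49, under it, and *Sgca* at 0.86 in place of 1.83. *Sgca* (alpha-sarcoglycan) had 9.97 normalized reads in AD-MSC, 16.7 in UC-MSC and 4.70 in Control, and *Cav3* (muscle caveolin) had 23.3 in AD-MSC, 21.0 in UC-MSC and 12.1 in Control. *Ptrf*, which builds caveolae, had 1355 in AD-MSC, 2022 in UC-MSC and 1167 in Control, and *Dtna* (dystrobrevin) had 145 in AD-MSC, 220 in UC-MSC and 131 in Control. The well-read genes of this list therefore had their highest level in UC-MSC, as the contractile genes did. In AD-MSC 10 of the 14 were above Control and 4 below it. One of the lower genes, named after its values were seen, was *Cav1* (caveolin), with 565 normalized reads in AD-MSC, 983 in UC-MSC and 711 in Control.

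Genes of calcium handling and membrane excitation had a median of 0.68 in UC-MSC, with 11 of 17 at least 1.5-fold higher, and of 0.16 in AD-MSC, with 1 of 17, near the 6.57% of all genes. *Pln* (phospholamban, a brake on the calcium pump of the sarcoplasmic reticulum) had 38.9 normalized reads in AD-MSC, 66.7 in UC-MSC and 29.6 in Control. *Trpc6*, a receptor-operated cation channel, had 14.7 in AD-MSC, 33.3 in UC-MSC and 15.3 in Control. Both were highest in UC-MSC. *Cacnb2*, a subunit of the voltage-gated calcium channel, had 113 in AD-MSC, 214 in UC-MSC and 100.1 in Control. *Kcnma1*, the pore of the large calcium-activated potassium channel, had 445 in AD-MSC, 725 in UC-MSC and 398 in Control and was 1.82-fold higher in UC-MSC.

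Receptors that start or modulate contraction had a median of 0.71 in UC-MSC, with 6 of 12 at least 1.5-fold higher, and of 0.09 in AD-MSC, with 1 of 12. The tachykinin receptor genes *Tacr1* and *Tacr2* were 2.92-fold and 2.10-fold higher in UC-MSC, at 275 and 233 normalized reads, and 1.27-fold and 1.01-fold higher in AD-MSC. *Ednrb*, an endothelin receptor, was 1.91-fold higher in UC-MSC. *Chrm3*, the muscarinic receptor that mediates cholinergic contraction, had few reads, with 14.9 in AD-MSC, 14.2 in UC-MSC and 7.35 in Control. It was the 1 receptor at 1.5-fold in AD-MSC, and with a pseudocount of 10 its log2 differences, 0.52 in AD-MSC colons and 0.48 in UC-MSC colons, were both under that limit. The receptor median in UC-MSC was then 0.46.

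The signalling genes between receptor and myosin were less far from Control, with a median of 0.32 in UC-MSC (0.19 with equal totals) and 0.11 in AD-MSC. At 1.5-fold there were 5 of 18 in UC-MSC and 1 of 18 in AD-MSC colons, the latter near the 6.57% of all genes. *Gucy1a3* and *Gucy1b3* code for the subunits of soluble guanylate cyclase, the nitric oxide receptor that relaxes smooth muscle. They were 1.87-fold and 1.97-fold higher in UC-MSC and 1.38-fold and 1.58-fold higher in AD-MSC. *Camk2g*, a calmodulin-dependent kinase, was 1.87-fold higher in UC-MSC and 1.38-fold in AD-MSC, and *Ppp1r14a* (CPI-17, the inhibitor of myosin phosphatase) was 1.72-fold higher in UC-MSC and 1.08-fold in AD-MSC. Genes that favour contraction and genes that favour relaxation were both among those higher in UC-MSC.

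Transcription regulators of smooth muscle and gut mesenchyme had a median of 0.25 in UC-MSC, with 5 of 15 at least 1.5-fold higher, and of 0.10 in AD-MSC, with 0 higher and 1 lower at that limit. Of all genes, 990 of 14960 were at least 1.5-fold lower in AD-MSC. The list did not go one way: 10 genes had higher and 5 lower values in UC-MSC, and 8 higher and 7 lower in AD-MSC. *Myocd* (myocardin) had 142 normalized reads in AD-MSC, 255 in UC-MSC and 130 in Control, 1.96-fold higher in UC-MSC. *Foxf2*, a factor of the gut mesenchyme, had 70.8 in AD-MSC, 111 in UC-MSC and 51.4 in Control, and *Tcf21*, a factor of fibroblast and visceral mesenchyme, had 132 in AD-MSC, 271 in UC-MSC and 108 in Control. *Prrx1*, another mesenchymal factor, had 5.49 in AD-MSC, 23.3 in UC-MSC and 12.2 in Control and was the 1 gene at least 1.5-fold lower in AD-MSC. With a pseudocount of 10 its log2 differences, -0.52 in AD-MSC and 0.58 in UC-MSC, were both inside the limit.

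**Figure D4:**
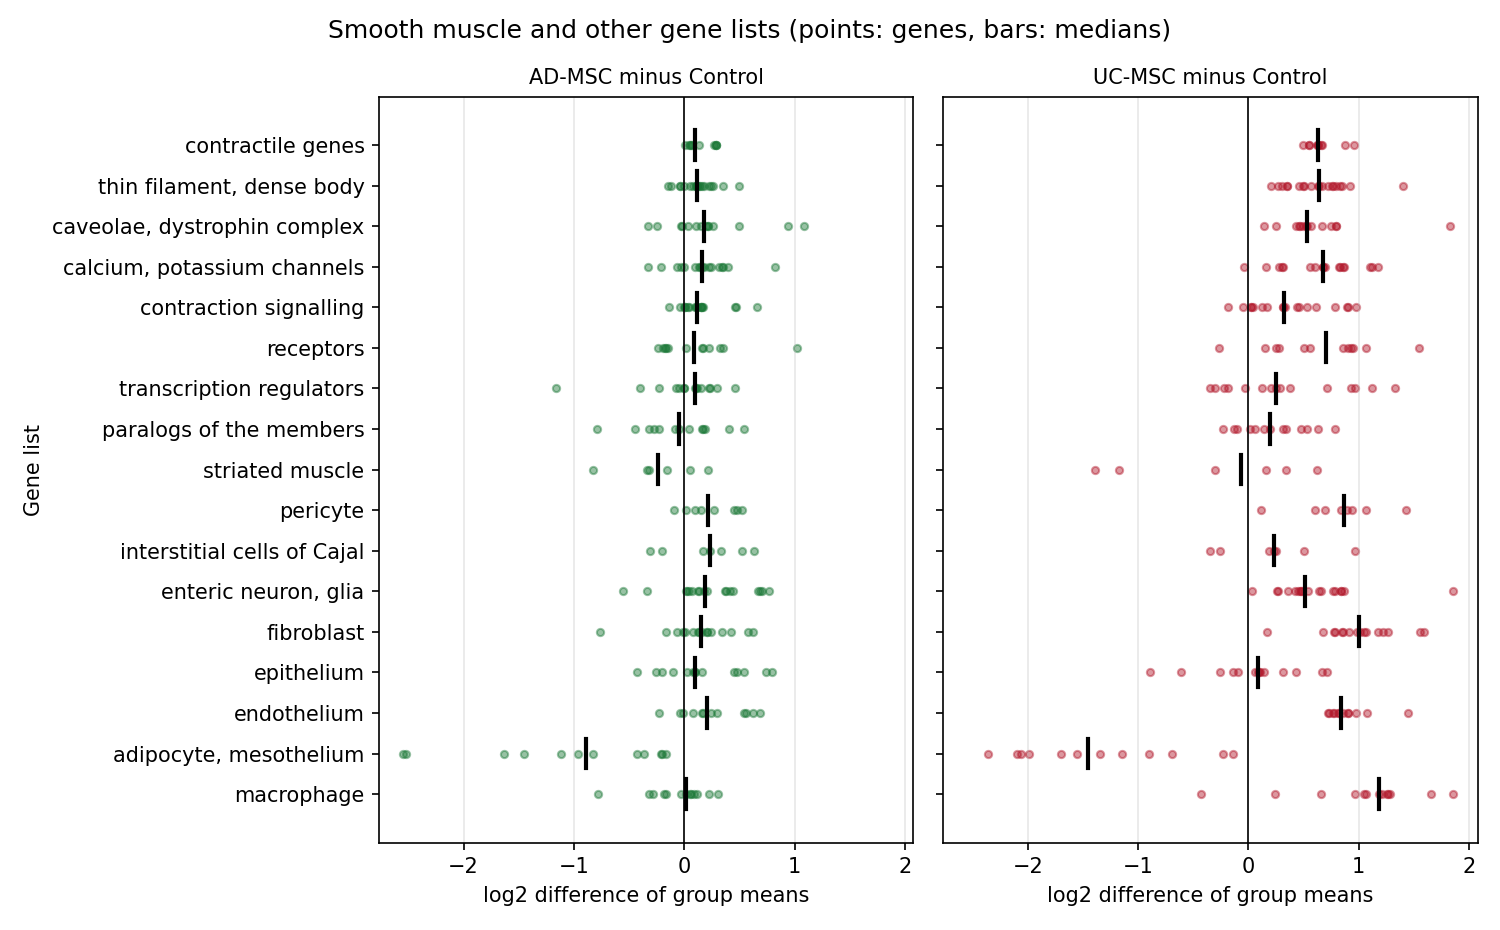
Log2 difference from Control (x axis) of each gene (points) in the contractile set, the companion lists and the lists of cell type markers, with the list median as a black bar, in AD-MSC (left) and UC-MSC (right). In UC-MSC the medians of the contractile, thin filament and calcium lists lie at 0.64 to 0.68, below those of fibroblast (1.002), endothelium (0.84), pericyte (0.87) and macrophage (1.18) markers and above that of epithelium (0.09).

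Markers of other cells were read the same way, since several of them make some of the 10 genes. Pericytes and vessel walls express *Acta2*, *Myh11* and *Tagln*, and the pericyte list had medians of 0.21 in AD-MSC colons and 0.87 in UC-MSC colons, with 7 of 8 at least 1.5-fold higher in UC-MSC. *Kcnj8* and *Abcc9*, which form the potassium channel of mural cells, were 2.69-fold and 2.09-fold higher in UC-MSC. The summed pericyte level was 4341 normalized reads in AD-MSC, 5717 in UC-MSC and 3345 in Control. Activated fibroblasts make *Acta2* and *Tagln*, and all 16 fibroblast markers had higher values in UC-MSC, 15 of them by at least 1.5-fold, with medians of 1.002 in UC-MSC and 0.15 in AD-MSC. *Mgp*, a matrix protein gene, and *Pi16*, a marker of adventitial fibroblasts, were 3.02-fold and 2.95-fold higher in UC-MSC, and the summed fibroblast level was 14750 in AD-MSC, 27129 in UC-MSC and 14268 in Control. The part of these cells in the values of the contractile genes was not tested.

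Endothelial markers had medians of 0.21 in AD-MSC colons and 0.84 in UC-MSC colons, with 12 of 12 at least 1.5-fold higher in UC-MSC and a summed level of 2069 normalized reads in AD-MSC, 3032 in UC-MSC and 1628 in Control. Macrophage markers had medians of 0.02 in AD-MSC colons and 1.18 in UC-MSC colons, with 11 of 13 at 1.5-fold in UC-MSC and sums of 1978 in AD-MSC, 4090 in UC-MSC and 2213 in Control. Enteric neuron and glia markers, which sit between the muscle layers, had medians of 0.19 in AD-MSC colons and 0.51 in UC-MSC colons, with 8 of 18 at 1.5-fold in UC-MSC and sums of 4035 in AD-MSC, 4349 in UC-MSC and 2888 in Control. A large part of these sums came from *Erbb3* alone, with 2280 normalized reads in AD-MSC, 1867 in UC-MSC and 1335 in Control. *Gfap*, a glial filament gene, was 3.62-fold higher in UC-MSC and *Ret*, a receptor of enteric neurons, 1.83-fold. The contractile genes were thus not alone in UC-MSC, where the markers of most cells beneath the epithelium were higher together.

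Interstitial cells of Cajal, the pacemakers of gut muscle, had markers with medians of 0.23 in both AD-MSC and UC-MSC (0.10 in UC-MSC with equal totals) and sums of 5634 normalized reads in AD-MSC, 5420 in UC-MSC and 5689 in Control. Of all genes, 6.57% were at 1.5-fold in AD-MSC and 14.4% in UC-MSC. In this list 1 of 7 was in each comparison, which in UC-MSC is close to the share of all genes. It was *Elovl6* (a fatty acid elongase, log2 difference 0.63) in AD-MSC and *Cd44* (an adhesion receptor that other cells also make, 0.97) in UC-MSC. *Kit*, their defining receptor, had 630 normalized reads in AD-MSC, 513 in UC-MSC and 437 in Control. The list did not go one way. *Ano1*, their pacemaker chloride channel, had 951 in AD-MSC, 661 in UC-MSC and 843 in Control, and *Thbs4*, a matrix protein gene, had 2758 in AD-MSC, 2864 in UC-MSC and 3429 in Control, the pair being named after their values were seen. Epithelial markers, the list with the most reads, had medians of 0.10 in AD-MSC colons and 0.09 in UC-MSC colons (-0.04 in UC-MSC with equal totals) and sums of 136686 in AD-MSC, 135898 in UC-MSC and 125824 in Control. These markers went both ways, with 10 higher and 4 lower in AD-MSC and 9 higher and 5 lower in UC-MSC. At 1.5-fold 2 of 14 were higher in each comparison, and 2 were lower in UC-MSC, against 1485 of 15026 genes. The lower ones in AD-MSC were *Krt19*, *Krt18*, *Krt8* and *Vil1*, at -0.43, -0.25, -0.20 and -0.10. *Muc2*, the goblet cell mucin, was 1.73-fold higher in AD-MSC and 1.24-fold higher in UC-MSC. *Cdx2*, an intestinal identity factor, had 307 normalized reads in AD-MSC, 98.7 in UC-MSC and 184 in Control.

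Fat and serosal cells lie outside the muscle wall, and their markers were lower in both MSC groups. All 12 compared had lower values, 7 by at least 1.5-fold in AD-MSC and 10 in UC-MSC. Among all genes compared, 990 of 14960 were that much lower in AD-MSC and 1485 of 15026 in UC-MSC. The list had medians of -0.89 in AD-MSC colons and -1.45 in UC-MSC colons. With a minimum mean of 50 normalized reads the medians were -0.43 in AD-MSC colons and -0.69 in UC-MSC colons. The list summed to 14845 normalized reads in AD-MSC, 17950 in UC-MSC and 20337 in Control, nearly all of it from *Krt19*, a keratin gene that the epithelium also makes, and without it to 735 in AD-MSC, 636 in UC-MSC and 1292 in Control. *Plin1*, a lipid droplet protein gene, had 8.91 normalized reads in AD-MSC, 11.9 in UC-MSC and 51.1 in Control, and *Msln*, a mesothelial marker, had 4.19 in AD-MSC, 5.87 in UC-MSC and 24.5 in Control. These low levels make the size uncertain: with a pseudocount of 10 the AD-MSC log2 difference of *Msln* was -1.28 in place of -2.55, and that of *Plin1* -1.69 in place of -2.52. In UC-MSC *Msln* was then at -1.12 in place of -2.06. The part of these outer tissues in the contractile values was not tested. Striated muscle markers were near absent. Of its 17 markers 6 had enough reads to be compared, and the list summed to 209 normalized reads in AD-MSC, 259 in UC-MSC and 260 in Control, against the 74866 to 117445 of the contractile genes. *Acta1*, the skeletal actin, had 27.9 in AD-MSC, 21.9 in UC-MSC and 49.5 in Control, and *Myh2*, a skeletal myosin, had 17.5 in AD-MSC, 6.43 in UC-MSC and 16.8 in Control. By the same inference not all UC-MSC libraries had *Myh2* reads. Its UC-MSC log2 difference of -1.39 was -0.71 with a pseudocount of 10 and -0.19 from raw group means. *Myog*, the factor of skeletal muscle differentiation, was listed at 0 on the log2 scale in AD-MSC and UC-MSC, and the troponin gene *Tnnc2* in UC-MSC and Control.

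The reads of the 10 genes were little exposed to their relatives or neighbours. Of the 50-base windows of their coding transcripts, 26 of 6655 (0.39%) in *Myh11* also occurred in *Myh9* or *Myh10*, and 7 of 2146 (0.33%) in *Acta2* also occurred in other actin genes or pseudogenes. The other 8 genes shared 0 windows. *Smtn* overlaps *Gm11946*, a noncoding RNA gene on the other strand, over 6700 bases, and that gene had 89.4 normalized reads in AD-MSC, 164 in UC-MSC and 124 in Control. *Tagln* overlaps the end of *Pcsk7* on the other strand by 65 bases, and *Pcsk7* had 603 in AD-MSC, 560 in UC-MSC and 559 in Control. The other overlapping genes, *Gm11947* at *Smtn*, *Gm15179* at *Des* and *U6* at *Lmod1*, had at most 1.97 normalized reads. The sources used here do not say whether counting used the strand, so reads of such a pair could be counted for either gene.

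CArG boxes were looked for in the 250 bases before the start site, as RefSeq places it on GRCm38.p6, for the 7 genes with a window (*Acta2*, *Des*, *Cnn1*, *Myl9*, *Mylk*, *Lmod1* and *Smtn*). A box was CC, 6 bases that are each A or T, and GG, which reads the same on both strands, so that 1 search covers both. A full box was found in 1 of the 7 windows, that of *Myl9*, and in 1.47% of 32851 windows of all genes. When 1 of the 6 middle bases was allowed to depart from A or T, boxes stood in 2 of the 7 windows, those of *Acta2* and *Myl9*, and in 8.59% of all windows, a wider search chosen after the first result was seen. Both stretches are shown with the boxes in capitals, 5′ to 3′ on the strand of the gene. The *Acta2* stretch runs from base -94 to base -15 (chr19:34255388-34255467, minus strand) and holds boxes with 1 departure each at -84 to -75 and -34 to -25. The *Myl9* stretch runs from -171 to -80 (chr2:156775293-156775384, plus strand) and holds the full box at -161 to -152 and a box with 1 departure at -99 to -90.
Acta2: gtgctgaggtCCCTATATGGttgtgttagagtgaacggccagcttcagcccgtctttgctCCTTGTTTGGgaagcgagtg
Myl9: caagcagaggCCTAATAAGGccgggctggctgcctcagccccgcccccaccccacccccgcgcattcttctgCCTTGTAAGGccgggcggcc
*Acta2* and *Myl9* were 2 of the 3 genes below 1.5-fold in UC-MSC, and a match describes letters in a window, not a site in use.

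Genes with the most similar pattern were ranked by the distance of their pair of log2 differences (AD-MSC and UC-MSC against Control) from the medians of the contractile genes, over 3 group means. Of 8279 other genes that averaged 100 or more normalized reads, 92 (1.11%) lay within 0.1 of that point. So did 5 of the 10 contractile genes, but the point was made from their own values. Their closeness to it is thus partly built in and cannot be set against the share of other genes. The nearest were *Slc43a3* (0.10 in AD-MSC, 0.62 in UC-MSC), *Slc20a2* (0.09, 0.63), *Man2a2* (0.10, 0.65), *Zyx* (0.11, 0.65), *Ccdc3* (0.11, 0.67), *Ptpn14* (0.13, 0.62), *Cox17* (0.12, 0.66), *Galnt2* (0.06, 0.64), *Nrp1* (0.14, 0.63) and *Myzap* (0.14, 0.64). Of the companion and marker lists, 10 genes lay within 0.1.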

How the data were processed

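Total RNA of the middle colon (RNA integrity number of at least 7) was made into SMARTer stranded Pico libraries and read as 50-base single ends on a HiSeq2500. The authors mapped reads to GRCm38/mm10 and used Strand NGS. The submitters' processing notes also name bcl2fastq 1.8.4 and DESeq. The aligner is not given in the sources used here. The deposited log2 column was taken to be the authors' mean over 3 libraries of log2 reads per size factor, with values under 1 set to 1. The deposited raw column, a signal with unit reads, was taken to be their geometric mean over libraries with reads. Both readings were inferred from the values. For 99.8% of UC-MSC genes above 50 reads, and more in the other groups, both columns differed by 1 constant within 0.002 on the log2 scale.

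The labels give 3 biological replicates a group. Only group means were used here, so the planned count test was replaced by differences of group means with no test. Log2 means were subtracted for genes that averaged 10 or more normalized reads in the groups compared (lists: in all 3 groups). The counting variance of a group mean was taken as 1 over 3 times its raw reads, the variances of both groups were added, and the root was put on the log2 scale. From each list up to 4 genes with the greatest difference from Control in either MSC group were eligible to be named. Exon lengths, overlaps and coding sequences were from GENCODE M21, promoters from RefSeq. The members and lists were chosen with earlier results of these data known, including that a smooth muscle list was higher in UC-MSC. The 1.5-fold limit was chosen with the same knowledge. Other pseudocounts, filters, scalings and a 2-fold limit were tried as alternatives. The steps were tested on simulated counts that held counting error and no variation between mice, so the test says nothing about that variation. Python 3.11.15, numpy 2.4.6, pandas 2.3.3 and matplotlib 3.10.9 were used.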

Additional observations from a re-analysis of the deposited data

How the results depend on the processing

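A pseudocount of 10, no filter on low values, a minimum mean of 50 normalized reads and a median gene set to 0 moved the medians of the 10 contractile genes by less than their counting interval. They left the counts at 1.5-fold as reported, except that 4 genes, with *Des* added, were counted in UC-MSC against AD-MSC with the median gene at 0. Neither filter setting could change these values, because all 10 genes had at least 850.0 normalized reads in each group (*Lmod1* in Control). At such levels a pseudocount of 10 has little effect, so the filters and the pseudocount are no check of stability for these genes. Scaling to equal totals of normalized reads moved the median log2 difference to 0.065 in AD-MSC and 0.50 in UC-MSC against Control, and to 0.43 in UC-MSC against AD-MSC. Raw group means scaled to equal totals gave 0.065, 0.50 and 0.43. The number of genes at least 1.5-fold higher was 2 in UC-MSC against Control and 0 in UC-MSC against AD-MSC under each of those scalings, and 0 in both comparisons with a 2-fold limit. The shift follows from the larger total of normalized reads in UC-MSC, which moved the median gene by -0.13 against Control. Of 180 single-gene values of the 10 genes under these settings, 53 moved by more than their counting interval, and 0 values that had been at 1.5-fold changed sign. The sign count could not have come out otherwise. The largest shift of the median gene was -0.14 (UC-MSC against Control, raw group means scaled to equal totals), far smaller than a 1.5-fold difference. Among the other genes named, those with few reads depended on the pseudocount: at 10, *Chrm3*, *Prrx1* and *Sgca* in AD-MSC and *Chrm3*, *Cav3* and *Prrx1* in UC-MSC were no longer at 1.5-fold. No paired analysis was possible because the table holds 1 mean for each group. For the same reason leaving out a library, the replicate block and DESeq2 were not run. Depth was no limit for these genes, with raw group means of 970 reads or more. The limit is that the spread between mice is unknown.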
